A study of Mus musculus with 8 samples.

Results

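The genes described here are 5 protein-coding genes on mouse chromosome 14, Tmem254, Gm16867, Entpd4, Entpd4b and Slc25a37, 5 of the 11911 genes listed in the count table and of the 11317 that were tested. They were chosen by their fold change in this genotype contrast, with its results known: the group was picked for large falls, led by Gm16867 and Tmem254, and takes in the genes that share the duplicated locus of Gm16867. Their genotype differences are therefore given as a description with no test.

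RNA-seq had been performed on induced regulatory T cells (iTregs), T cells that acquire the transcription factor Foxp3 in culture, to compare the transcriptomes of iTregs from both genotypes. Naive CD4+ T cells from mouse spleen were cultured for 36 h in both genotypes with TGF-β, antibodies to CD3 and CD28, and antibodies that neutralise IFNγ and IL-4. Both genotypes carry Foxp3YFP-Cre, a Cre recombinase made only where Foxp3 is transcribed, and the libraries labelled KO carry Tdrd3 fl/fl in addition, whereas the controls, labelled WT, are Foxp3YFP-Cre alone. There were 4 libraries per genotype, no sort of YFP-positive cells before RNA isolation is named, and the floxed and the Cre mice came from separate laboratories and were bred into C57BL/6J. The control mice thus carry no floxed allele, so that the loss of TDRD3 and any inherited difference on chromosome 14 between the mouse lines cannot be told apart in these counts. The labels do not say that the libraries of a genotype came from separate animals, whereas the methods speak of independent mice but of fewer replicates, and if they were not separate the spread measures technical error only.

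The counts of listed genes summed to between 13258239 and 16001676 per library. All 10 T cell markers and all 8 iTreg markers examined were listed. The T cell markers summed to 3313 to 3497 counts per 1000000 (CPM) in the Foxp3YFP-Cre and 3102 to 3271 CPM in the Tdrd3 fl/fl/Foxp3YFP-Cre libraries, and the iTreg markers to 3679 to 3825 and 3451 to 3580 CPM. Both sums were lower in every knockout library, as most members were, and the part of this in the members' values was not tested. The largest falls in CPM were those of Thy1 (989.5 ± 72.2 and 825.3 ± 61.6 CPM) and Il2ra (2268 ± 78.3 and 2076 ± 67.5 CPM). The markers did not all move together, since Cd3g, Cd5, Ctla4 and Itgae had higher means in the knockout. Of the erythroid markers, which matter here because Slc25a37 is a gene of red cell precursors, 2 of 10 were listed (Hbb-bt and Gata1), at a summed 3.01 to 4.05 CPM in the Foxp3YFP-Cre and 1.94 to 2.92 CPM in the Tdrd3 fl/fl/Foxp3YFP-Cre libraries. Myeloid, B cell and CD8 or NK cell markers summed to at most 1.22, 4.35 and 24.95 CPM in any library. Of these lists, 1 of 7, 4 of 6 and 4 of 6 markers were listed. Among them Cd8a was uneven, at 3.65 ± 5.10 CPM in the Foxp3YFP-Cre and 0.82 ± 0.37 CPM in the Tdrd3 fl/fl/Foxp3YFP-Cre libraries. Tdrd3 itself was at 15.4 ± 3.95 CPM in Foxp3YFP-Cre and 12.1 ± 1.43 CPM in Tdrd3 fl/fl/Foxp3YFP-Cre iTregs, and Foxp3 at 109.9 ± 12.5 and 88.4 ± 13.3 CPM (SD, n = 4 each). For both genes the libraries of the genotypes overlapped. In bulk RNA of this kind, fewer cells that express a gene and less of its RNA per cell cannot be told apart.

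Segmental duplications are long stretches of a genome that occur more than once at high identity. Reads from genes inside them match several places, and their assignment to one copy is an estimate of the counting software. Entpd4 and Entpd4b encode ENTPD4, a nucleoside diphosphatase of the Golgi and lysosomal membranes that hydrolyses UDP, the by-product of sugar transfer onto proteins and lipids. Slc25a37 encodes mitoferrin-1, which carries iron into mitochondria for haem and iron-sulphur cluster synthesis. Gm16867 is a predicted protein-coding gene without an assigned function, and Tmem254 encodes a small multipass membrane protein of which little is known.

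Of the 5 genes, 4 lie together. When the region was aligned to itself in the GRCm39 genome, it held a direct tandem duplication, with copy 1 at chr14:69491729-69709985 (218257 bp) and copy 2 at chr14:69709979-69928260 (218282 bp). The copies were 99.987% identical, with 3 substitutions and 1 gap of 25 bases over the whole length, and none of these differences lay in an annotated exon. The 3 stretches of 80 bases of the plus strand show how the copies join, with the duplicated sequence in capitals and the sequence outside the copy that begins or ends there in lower case. The left edge of copy 1 (chr14:69491689-69491768), the junction (chr14:69709939-69710018) and the right edge of copy 2 (chr14:69928221-69928300) read:
left edge of copy 1: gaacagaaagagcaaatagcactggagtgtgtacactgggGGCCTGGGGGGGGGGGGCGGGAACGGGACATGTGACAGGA
junction between copies: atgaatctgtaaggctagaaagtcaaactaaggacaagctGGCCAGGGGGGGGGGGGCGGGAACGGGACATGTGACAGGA
right edge of copy 2: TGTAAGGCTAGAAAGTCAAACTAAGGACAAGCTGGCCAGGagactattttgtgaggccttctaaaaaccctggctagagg
At the junction the lower case bases are the end of copy 1 and the capitals the start of copy 2, and the aligned copies overlap there by 7 bases.

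**Figure D1:**
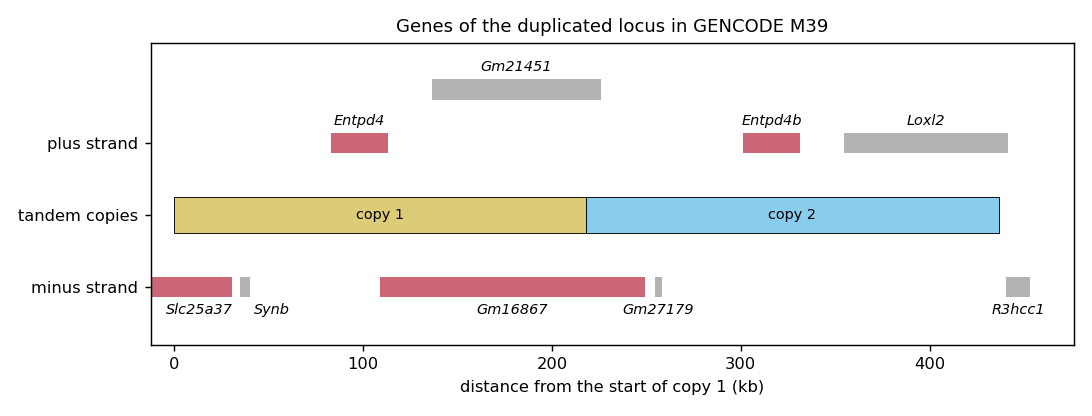
Map of the duplicated locus as annotated by GENCODE M39 on GRCm39, with the distance from the start of copy 1 in kb on the x axis and genes drawn on their strand (members in red, other genes in grey; Slc25a37 extends beyond the left edge of copy 1, and of the grey genes the count table lists R3hcc1 alone). Entpd4 lies in copy 1 and Entpd4b in copy 2, each copy being 218.3 kb long, and Gm16867 crosses the junction.

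Entpd4 (ENSMUSG00000095463, chr14:69574623-69604719, plus strand) lies in copy 1 and Entpd4b (ENSMUSG00000022066, chr14:69792873-69822969, plus strand) in copy 2, 218250 bp further on. Their exons form 13 stretches with 8074 bases in total, of which 0 differed between the genes. The 250 bases upstream of both starts were also the same, and they are printed once from Entpd4 (chr14:69574373-69574622) because no letter of it separates the transcription start regions of the pair, with the CCAAT box in capitals:
Entpd4 and Entpd4b upstream: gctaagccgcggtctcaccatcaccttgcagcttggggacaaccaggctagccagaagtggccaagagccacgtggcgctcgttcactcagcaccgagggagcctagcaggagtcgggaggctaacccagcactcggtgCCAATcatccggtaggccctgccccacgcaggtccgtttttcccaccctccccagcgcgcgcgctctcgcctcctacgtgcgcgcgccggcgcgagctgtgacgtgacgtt
This stretch held 66.4% G and C and 25 CpG dinucleotides, against medians of 52.4% and 6 in the corresponding stretch of 32851 RefSeq promoters (GRCm38.p6). Of those promoters, 33.8% held CCAAT on either strand. The letters TATAAA and GGGCGG, held by 12.4% and 32.7%, were on neither strand of it, and no searched motif overlapped another.

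Gm16867 (ENSMUSG00000093954, minus strand) spans chr14:69600953-69740811 in the count table. In GENCODE M39, whose limits for this gene are wider, 29 of its 31 transcripts had exons in both copies, and 30 began in a copy of exon 1 of Slc25a37. That exon (chr14:69522181-69522561, 381 bases) lies in copy 1, and its counterpart in copy 2 (chr14:69740431-69740811) had 0 mismatches to it. Of the 6021 annotated exon bases of Slc25a37 (ENSMUSG00000034248, chr14:69479297-69522561, minus strand), 472 (7.84%), exon 1 included, lay in copy 1 and 5549 lay outside the duplication. The coding sequence at the first exon join shows what distinguishes the transcripts, with the last 30 bases of exon 1 in lower case and the first 30 of the next exon in capitals (exon 2 at chr14:69487042-69487071 for Slc25a37 and chr14:69659419-69659448 for Gm16867):
Slc25a37: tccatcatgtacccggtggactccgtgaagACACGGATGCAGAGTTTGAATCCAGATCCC
Gm16867: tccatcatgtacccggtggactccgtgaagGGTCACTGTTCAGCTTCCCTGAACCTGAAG

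How far reads could separate the genes was described by the 100-base words of their GENCODE M39 transcripts. All words of Entpd4b and 98.9% of those of Entpd4 also occurred in another annotated gene, as did 71.8% of those of Gm16867, which kept 3211 words of its own. Of the 8186 shared words of Gm16867, 6998 occurred in a gene outside the members, and 2162 each in Entpd4 and Entpd4b. For Slc25a37 the share was 25.0% (1603 words), with 1229 in another gene outside the members and 374 in Gm16867. For Tmem254 the share was 0%. In addition, 24.4% of the 10064 exon bases of Gm16867 lay opposite exons of Entpd4 on the other strand, and the strandedness of the counting is not given in the sources used here, so that reads of those bases cannot be assigned to a gene with certainty. In the deposited counts, all 8 values of Gm16867, Entpd4 and Entpd4b were more than 0.01 away from a whole number, as were 6 of 8 of Slc25a37 and none of Tmem254, against 29.6% of all values in the table.

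Tmem254 (ENSMUSG00000072676, chr14:25923724-25928096, minus strand) lies elsewhere on the chromosome. Its transcript matched the GRCm39 genome over at least 90% of its length at 1 place, as did those of Slc25a37 and Gm16867. Those of Entpd4 and Entpd4b matched at 2. Shorter parts of the Gm16867 transcript also matched elsewhere in the duplicated locus, over 61.9% and 37.0% of its length. The RefSeq annotation of the earlier build GRCm38.p6 lists 3 genes at this locus, Tmem254a, Tmem254b and Tmem254c, where GENCODE M39 on GRCm39 lists 1. Each of the RefSeq promoter windows of these 3 genes, 300 bases long, matched chromosome 14 of GRCm39 at 1 place. Plac9, Cphx and Duxbl, listed there as 2, 3 and 3 genes in GRCm38.p6, are likewise 1 gene each in GRCm39, and none of them is in the count table. The 250 bases upstream of Tmem254 (chr14:25928097-25928346), shown because Tmem254 is the member with the largest difference among those counted well in both genotypes, held none of the 3 motifs on either strand:
Tmem254 upstream: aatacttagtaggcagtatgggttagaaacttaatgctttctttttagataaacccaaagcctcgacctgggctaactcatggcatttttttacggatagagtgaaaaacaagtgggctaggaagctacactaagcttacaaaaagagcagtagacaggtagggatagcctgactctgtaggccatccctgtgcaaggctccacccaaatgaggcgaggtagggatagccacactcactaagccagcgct
Its G and C content was 46.0%, with 4 CpG dinucleotides.

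Tmem254 was clearly expressed in control iTregs and was lower in each library of Tdrd3 fl/fl/Foxp3YFP-Cre iTregs. It was at 57.7, 58.9, 47.7 and 58.7 normalised CPM in Foxp3YFP-Cre replicates 1 to 4, whereas knockout replicates 1 to 4 had 20.6, 19.2, 20.3 and 18.1 CPM. The genotypes did not overlap, and the lowest control, replicate 3, still stood far above the highest knockout. The means were 55.8 ± 5.42 and 19.5 ± 1.16 CPM (SD, n = 4 each), so that the knockout mean was 35.0% of the control. The log2 fold change was -1.51 (SE 0.08), the 8th lowest of 11317 tested genes. Behind these values stood 680 to 843 reads in the control and 266 to 306 in the knockout libraries.

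Gm16867 was low in control iTregs and at or under the detection floor in every Tdrd3 fl/fl/Foxp3YFP-Cre library. Its estimated counts were 63.1, 105.7, 100.6 and 63.4 in Foxp3YFP-Cre replicates 1 to 4, whereas knockout replicates 1 to 4 had 1.55, 2.16, 0.319 and 0.0217. All 4 knockout values were below 3 counts per library, taken as the smallest amount that a library can show, and all 4 control values were well above it. The control mean was 5.89 ± 1.76 CPM (SD, n = 4), and with the knockout libraries set to that floor, on average 0.209 CPM, Gm16867 was at least 28.2-fold lower. It had the lowest fitted log2 fold change of all tested genes. Tdrd3, the targeted gene, differed less than Gm16867 in the same libraries (log2 fold change -0.35, SE 0.15), and which of its exons are floxed is not given in the sources used here.

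**Figure D2:**
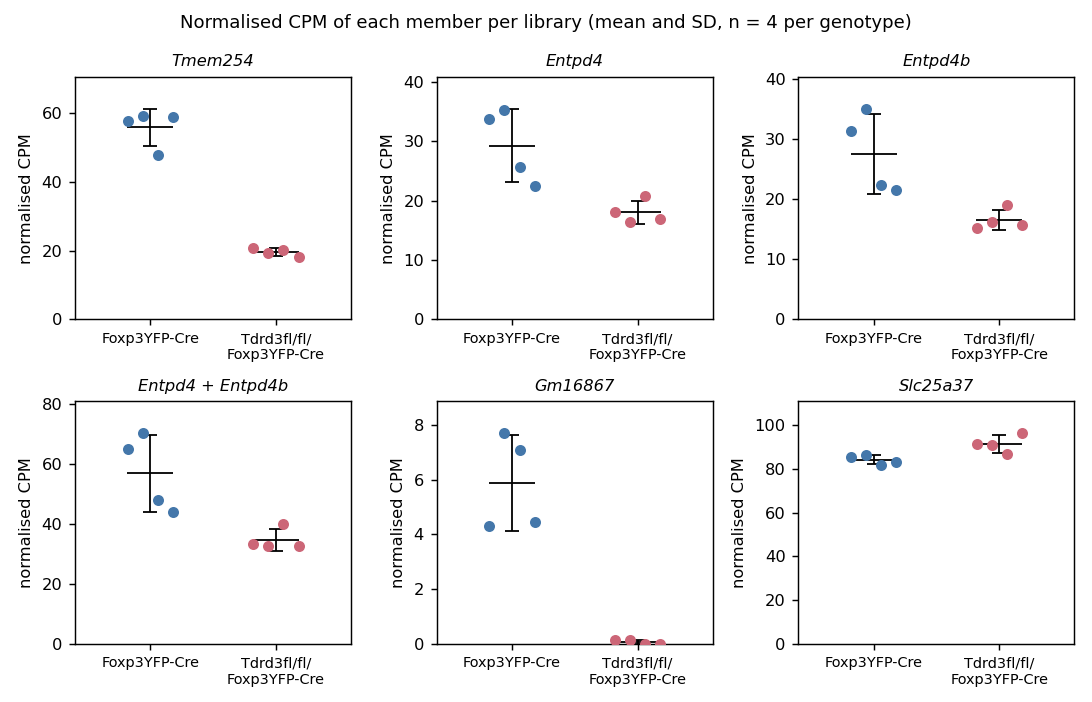
Normalised CPM (y axes, each from 0) of the members and of Entpd4 and Entpd4b added together in the 8 libraries; points are libraries in replicate order, horizontal bars the mean and error bars the SD (n = 4 per genotype). Tmem254, both Entpd4 genes, their sum and Gm16867 do not overlap between genotypes and are lower in Tdrd3 fl/fl/Foxp3YFP-Cre iTregs, while Slc25a37 is slightly higher.

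Both Entpd4 genes were also lower in the knockout libraries. Because their exons are identical, the division of reads between them carries no information on either copy, and Entpd4 took between 50.1% and 54.1% of the pair in every library of both genotypes. Their sum does not depend on that division, although part of their sequence is also shared with Gm16867. It was 65.1, 70.3, 47.9 and 44.0 CPM in Foxp3YFP-Cre replicates 1 to 4, whereas knockout replicates 1 to 4 had 33.3, 32.7, 39.9 and 32.6 CPM. The genotypes did not overlap, but the lowest control, replicate 4, and the highest knockout, replicate 3, were close. The control libraries ranged more widely, with replicates 1 and 2 high and replicates 3 and 4 low.

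The mean of the sum was 56.8 ± 12.83 CPM in the control and 34.6 ± 3.55 CPM in the knockout (SD, n = 4 each), 60.9% of the control, with a log2 fold change of -0.72 (SE 0.12) in a fit in which the pair formed a single gene. As separate genes, Entpd4 was at 29.3 ± 6.20 and 18.04 ± 1.964 CPM (log2 fold change -0.70, SE 0.12) and Entpd4b at 27.5 ± 6.70 and 16.6 ± 1.72 CPM (-0.73, SE 0.13). These were the 62nd and 47th lowest of the tested genes. Adding Gm16867, which shares sequence with both, gave 62.7 ± 13.4 CPM in the control and 34.7 ± 3.51 CPM in the knockout, or 55.3% of the control. Within these 3 genes Gm16867 took 6.23% to 12.82% of the counts in the control and 0.0045% to 0.414% in the knockout libraries.

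Slc25a37, whose first exon is in copy 1 and most of whose exon bases are outside it, was not lower. It was at 85.4, 86.4, 81.9 and 83.0 CPM in control replicates 1 to 4, whereas knockout replicates 1 to 4 had 91.6, 90.9, 86.6 and 96.4 CPM. Every knockout library was above every control, by a narrow margin. The means were 84.2 ± 2.07 and 91.4 ± 3.98 CPM (SD, n = 4 each), and the log2 fold change was 0.12 (SE 0.05). A sum with Gm16867, which shares exon 1 with Slc25a37, was chosen after the data were seen. With its counts added, the means became 90.1 ± 2.87 and 91.4 ± 3.98 CPM, the genotypes overlapped and the log2 fold change was 0.02 (SE 0.05). The sum takes in all counts of Gm16867, although only 374 of its 11397 words of 100 bases occurred in Slc25a37.

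All KO libraries were thus below all WT libraries for 4 of the 5 members and above them for Slc25a37. Among all 11317 tested genes, 2.63% showed the lower pattern and 2.25% the higher. Nothing is read from the members' count, since this contrast chose them. Per kilobase of exon in GENCODE M39, the mean level in control iTregs was 21.7 CPM per kb for Tmem254, 13.98 for Slc25a37, 7.04 for the Entpd4 pair and 0.585 for Gm16867. In knockout iTregs Slc25a37 came first at 15.2 CPM per kb, followed by Tmem254 at 7.61 and the Entpd4 pair at 4.29, with Gm16867 under the floor.

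The chromosomal surroundings of the members were examined next. Tdrd3 is on chromosome 14 as well (chr14:87654075-87782940, plus strand), but far away: 61.7 Mb separate it from Tmem254, 18.1 Mb from Slc25a37 and Entpd4, 17.9 Mb from Gm16867 and 17.8 Mb from Entpd4b. Within 1 Mb of a member, 29 other genes were tested, and 0 had an adjusted p under 0.05 in the quasi-likelihood test of edgeR (Benjamini-Hochberg adjustment), 0 an unadjusted p under 0.05 and 0 an adjusted p under 0.05 in DESeq2. Over all tested genes 0.265% passed the adjusted threshold in edgeR (30 genes, 23 lower and 7 higher) and 9.3% the unadjusted one. The median log2 fold change was -0.04 for the 12 genes near Tmem254 and 0.02 for the 17 near the duplicated locus, beside 0.00 over all tested genes. All 17 lay to the right of the duplicated locus, and no gene within 1 Mb to its left was tested. The lowest of the 29 was Dnah12, a dynein gene, at 1.09 ± 0.18 and 0.567 ± 0.42 CPM (log2 fold change -0.90, SE 0.44, edgeR adjusted p = 0.549).

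Of the genes in the count table, those nearest to Tmem254 were Anxa11 and Slmap. Anxa11 encodes annexin A11, a calcium-dependent membrane-binding protein, and Slmap a sarcolemma-associated membrane protein. Genes that the table does not list were not measured. Anxa11, 36.5 kb to the left, was at 64.8 ± 1.83 and 63.1 ± 4.81 CPM in Foxp3YFP-Cre and Tdrd3 fl/fl/Foxp3YFP-Cre iTregs (log2 fold change -0.04, SE 0.06, edgeR adjusted p = 0.915). Slmap, 206.2 kb to the right, was at 133.5 ± 4.71 and 135.1 ± 4.56 CPM (0.02, SE 0.04, edgeR adjusted p = 0.944). One place further out, Zcchc24 had a log2 fold change of -0.38 (SE 0.25) and Dennd6a, a guanine nucleotide exchange factor for Rab proteins, of -0.05 (SE 0.07), with edgeR adjusted p-values of 0.737 and 0.914.

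On the right of the duplicated locus, R3hcc1 was at 31.2 ± 2.14 and 31.6 ± 2.19 CPM (log2 fold change 0.02, SE 0.07, edgeR adjusted p = 0.963), and Chmp7, encoding a component of the membrane-remodelling ESCRT-III machinery, at 50.8 ± 4.39 and 51.9 ± 2.19 CPM (0.03, SE 0.07, edgeR adjusted p = 0.937). On the left, Stc1, encoding the secreted glycoprotein stanniocalcin-1, had 4 to 9 counts in the control and 10 to 19 in the knockout libraries and was left out of testing by the filter on low counts. Without the filter its log2 fold change was 1.04, with an edgeR adjusted p of 0.501. Dock5, encoding an exchange factor for Rac, lies 1308 kb away, outside the 1 Mb window. Its log2 fold change was 0.26 (SE 0.12, edgeR unadjusted p = 0.0444, adjusted p = 0.516).

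**Figure D3:**
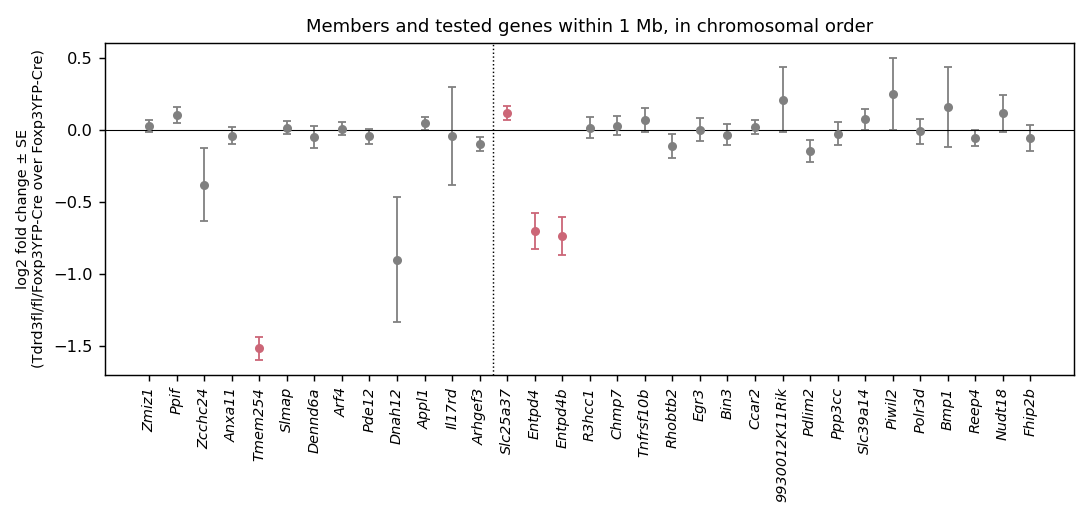
Log2 fold change of Tdrd3 fl/fl/Foxp3YFP-Cre over Foxp3YFP-Cre iTregs (y axis, edgeR, bars are the SE) for the members with a fitted value (red) and the 29 tested genes within 1 Mb (grey), in chromosomal order; the dotted line divides the Tmem254 locus from the duplicated locus. Tmem254 at -1.51 and the 2 Entpd4 genes at -0.70 and -0.73 stand among neighbours that lie nearer 0, apart from the thinly counted Dnah12 at -0.90; Gm16867 is not drawn because its value is a bound.

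**Figure D4:**
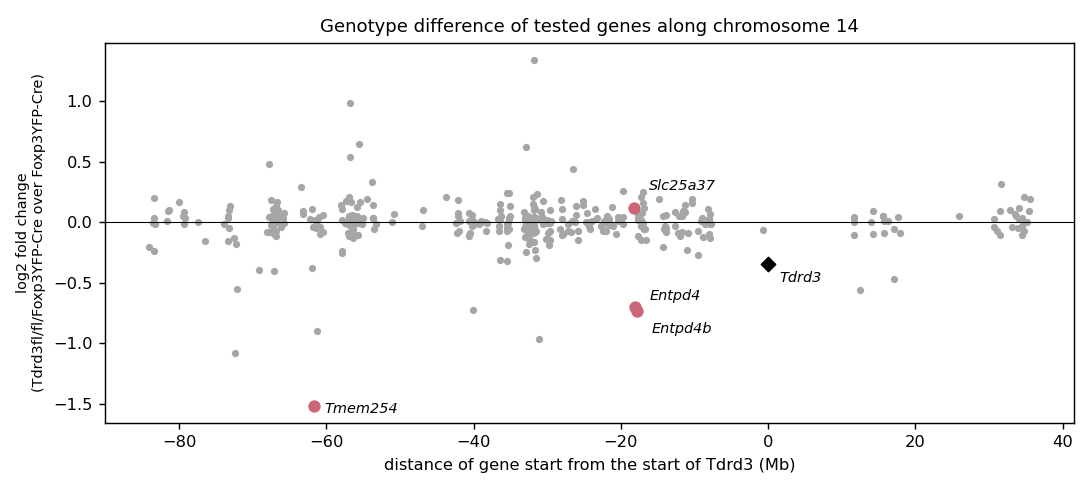
Log2 fold change of Tdrd3 fl/fl/Foxp3YFP-Cre over Foxp3YFP-Cre iTregs (y axis, edgeR) against the distance of each gene's start from the start of Tdrd3 in Mb (x axis) for the tested genes of chromosome 14; members are red, Tdrd3 is a black diamond and other genes are grey. Tmem254 is the lowest point at -1.51, and genes between the members and Tdrd3 lie mostly near 0; Gm16867 is not drawn.

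Over the whole chromosome, 381 non-members were tested, Tdrd3 among them. Of these, 0 passed an adjusted p of 0.05 in edgeR, beside 0.265% over all tested genes. An unadjusted p under 0.05 was held by 32, beside 9.3% over all tested genes. In DESeq2, 1 passed, Lgals3, which encodes the sugar-binding protein galectin-3 (log2 fold change -0.73). It stood just over the threshold in edgeR (log2 fold change -0.72, adjusted p = 0.0523). The median log2 fold change of the 381 non-members was 0.00, the lowest -1.08 and the highest 1.34.

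The genes whose log2 CPM was most like that of Tmem254 and of Gm16867 over the 8 libraries are given as a description, since the genotype difference for which both members were chosen fixes most of each r. The most alike gene for both was Lpgat1 on chromosome 1, which encodes an acyltransferase of phospholipid synthesis (Pearson r = 0.977 with Tmem254 and 0.992 with Gm16867). The next were each other (0.974), Ctdsp1, a phosphatase gene, for Tmem254 (0.970) and Dnah7a, a dynein gene, for Gm16867 (0.974). Ctdsp1 and Dnah7a are on chromosome 1 as well. The log2 fold changes of the other genes were -0.27 for Lpgat1, -0.14 for Ctdsp1 and -0.92 for Dnah7a. Among the controls alone Tmem254 and Gm16867 did not run together: replicate 3 was the lowest for Tmem254 and the second highest for Gm16867.

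The other genes of the pathways in which ENTPD4 and mitoferrin-1 act were read from 4 lists, none of which holds a member. In each list 0 genes had an adjusted p under 0.05 in edgeR. Since 0.265% of all tested genes passed this threshold, 0 in lists this short says little about a pathway. An unadjusted p under 0.05 was held by 9.3% of all tested genes. Of the ENTPD family and the enzymes that handle extracellular nucleotides, 11 of 17 were tested and 1 had an unadjusted p under 0.05. The smallest p belonged to Nt5e, which encodes CD73, the enzyme that makes adenosine from AMP, at 97.3 ± 4.69 and 111.8 ± 7.59 CPM (log2 fold change 0.20, SE 0.05, edgeR adjusted p = 0.139). Enpp4 and Entpd7 followed at -0.21 (SE 0.11) and -0.24 (SE 0.13).

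Of 24 genes of nucleotide-sugar supply and use, all were tested and 1, Uap1, had an unadjusted p under 0.05 in edgeR. Uap1, which makes UDP-N-acetylglucosamine, was at 126.2 ± 4.88 and 115.8 ± 2.89 CPM (log2 fold change -0.12, SE 0.04, edgeR adjusted p = 0.338). The transporter genes Slc35c1 and Slc35c2 were next, at -0.09 (SE 0.05) and 0.10 (SE 0.07). The medians of these 2 lists were -0.03 and -0.01 on the log2 scale. In DESeq2, 0 genes of either list passed.

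Of 29 genes of mitochondrial iron import, haem and iron-sulphur synthesis, 28 were tested and 2 had an unadjusted p under 0.05. Cpox, which encodes coproporphyrinogen oxidase of the haem pathway, was at 177.6 ± 14.6 and 213.5 ± 18.2 CPM (log2 fold change 0.26, SE 0.06, edgeR adjusted p = 0.0758), and it was the 1 gene of the list that passed in DESeq2 (adjusted p = 0.0145). Hspa9, a mitochondrial chaperone, was at 709.3 ± 32.9 and 773.1 ± 35.5 CPM (0.12, SE 0.04, edgeR adjusted p = 0.288).

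Of 19 genes of cellular iron uptake, storage and sensing, 17 were tested, 1 had an unadjusted p under 0.05, and 0 passed in DESeq2. Fth1, encoding ferritin heavy chain, was at 327.4 ± 11.6 and 349.9 ± 11.0 CPM (log2 fold change 0.10, SE 0.04, edgeR adjusted p = 0.452), and Steap3 and Ireb2 followed at -0.61 (SE 0.30) and -0.07 (SE 0.05). The medians of the 2 iron lists were 0.02 and 0.00.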

How the data were processed

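Bulk RNA-seq of 8 libraries was analysed, 4 labelled WT (Foxp3YFP-Cre) and 4 labelled KO (Tdrd3 fl/fl/Foxp3YFP-Cre). The authors aligned reads to GRCm39 with STAR 2.7.8a in Partek Flow, per the submitters' processing notes, and deposited estimated counts per gene, in which a read that matches several genes is divided among them; annotation release, strandedness and sequencing depth are not given in the sources used here. The table lists genes that reach 10 counts in at least 1 library, and 594 of the 11911 were left out by filterByExpr.

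Estimated counts were rounded, scaled by TMM and tested for genotype with edgeR 4.0.16 (quasi-likelihood, two-sided, Benjamini-Hochberg over all 11317 tested genes) in R 4.3.3. DESeq2 1.42.0 was an alternative. Normalised CPM are the rounded counts per 1000000 after TMM. Members with near-identical copies were also summed. The members, gene lists and tests were chosen with earlier results of these data known. Named genes are the members, Tdrd3, Foxp3, cell markers, the 2 listed genes on each side of a locus and chromosome 14 genes that passed. Named as well are the 3 smallest p-values of each list and the 3 genes most alike to Tmem254 and to Gm16867 (log2 CPM, prior count 2). A gene and an upstream sequence that fall under these choices are not reported here. The fit was tested on simulated data. The duplication came from blastn 2.17.0 of the region against itself, and transcript matches from minimap2 2.31; sequences were read from GRCm39. Columns of other samples: 0. Intervals of the spread are SD over libraries, and the floor of 3 counts covers counting error only. Stop coordinates of the table were read as 1 past the last base.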

Additional observations from a re-analysis of the deposited data

Results flagged for a closer look

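Of 20 groups of 4 libraries examined for a single library far from the other 3, 3 held one, and chance alone flags about 1 in 20. Tmem254 in Foxp3YFP-Cre replicate 3 was at 47.7 CPM, below the other controls. Entpd4 and Entpd4b added together were at 39.9 CPM in Tdrd3 fl/fl/Foxp3YFP-Cre replicate 3, above the other knockout libraries, and the sum with Gm16867 was again 39.9 CPM there, since it differs by Gm16867 alone.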

How the results depend on the processing

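In the alternatives where they were read, the log2 fold changes of Tmem254, Entpd4, Entpd4b and their sum kept their direction. Each moved by less than the spread between replicates. The least fold for Gm16867 stayed between 25.3-fold and 30.8-fold where it was read. The DESeq2 test and the filter of at least 10 counts in every library were read for counts of called genes only. Leaving out each library in turn gave -1.58 to -1.48 for Tmem254, -0.82 to -0.60 for the Entpd4 sum, 0.09 to 0.14 for Slc25a37 and 25.3-fold to 30.8-fold for Gm16867. Slc25a37 moved to 0.02 with all counts of Gm16867 added. The count of all called genes was less stable: 30 became 81 in DESeq2 and 6 to 162 without one library (162 without Tdrd3 fl/fl/Foxp3YFP-Cre replicate 2, 90 without Foxp3YFP-Cre replicate 4). Within 1 Mb of a member, genes with an unadjusted p under 0.05 in edgeR went from 0 to 1 (Stc1) with no filter on low counts. They were 1 with a replicate block and 0 to 3 without 1 library. Those with an adjusted p under 0.05 stayed at 0. Chromosome 14 non-members with an adjusted p under 0.05 rose from 0 to 1 (Lgals3) in DESeq2 and with at least 10 counts in every library. They were 0 to 2 without 1 library (Lgals3 and Stab1). The mitochondrial iron list went from 0 to 1 (Cpox) in DESeq2 and was 0 to 1 without one library. Cause was not tested.

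Replicate numbers are shared between genotypes, but the deviations of same-numbered libraries correlated at only -0.05, 0.00, -0.04 and 0.07, so the numbers were not taken to pair them. With a replicate block 87 genes passed, with 1 on chromosome 14 (Lgals3) and 1 in the mitochondrial iron list (Cpox).

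Identical exons limit what the counts of Entpd4, Entpd4b and Gm16867 say about a single copy, at any depth. The counts do not measure how many genomic copies the mice carry, and the reads were not analysed here.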
